A study of Mus musculus with 4 samples.

Results

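The HIVEP family consists of the paralogs Hivep1, Hivep2 and Hivep3, which were taken by symbol from the gene column of the matrices and are 3 of the 31053 genes counted. Their transcripts were followed in single thymic invariant natural killer T (iNKT) cells, T cells with a nearly fixed receptor for lipids presented by CD1d. Cells that bound a PBS57-loaded CD1d tetramer were sorted from untreated mice 8 to 9 weeks old, with CD44low and CD44high cells mixed equally, and sequenced from the 5' end of transcripts. C57BL/6 mice were compared with mice labelled Hivep3-/-, which carry a disrupted Hivep3 gene on the same C57BL/6 background, with 2 mice and 1 library per mouse in each genotype. The comparison asks where each paralog is transcribed during iNKT cell development, and whether Hivep1 or Hivep2 differ where Hivep3 is disrupted. The disruption is carried by all cells of the Hivep3-/- mice, and neither the labels nor the study's methods say which part of the gene it removes.

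HIVEP proteins are very large zinc finger proteins that bind kappaB-like DNA elements, the sites also used by NF-kappaB. HIVEP1 was found as a factor binding the enhancer of the human immunodeficiency virus, and HIVEP2 is known for a role in the maturation of thymocytes after positive selection. HIVEP3 acts both on DNA and as an adapter that binds TRAF2 and JUN, and it is the member targeted in these mice.

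In the GENCODE vM21 annotation of GRCm38 all 3 genes lie on the plus strand. Hivep1 (ENSMUSG00000021366) spans chr13:42052021-42192537 with 5 annotated transcripts, Hivep2 (ENSMUSG00000015501) spans chr10:13966075-14151374 with 6, and Hivep3 (ENSMUSG00000028634) spans chr4:119733784-120138045 with 10. No run of 50 bases is shared between annotated transcripts of any pair of the paralogs, on either strand, so reads of that length do not belong to more than one of them. Hivep2 overlaps the opposite-strand genes Gm26835 and Gm28289, which had 2 to 7 UMIs and 0 UMIs per library, and Hivep3 overlaps AL607142.1 on the same strand, which had 0 UMIs in all 4 libraries.

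The 250 bases before the RefSeq start of each gene (GRCm38.p6, plus strand) are shown because transcripts were counted from their 5' ends and because the family binds kappaB-like letters. Capitals mark GGG and CC with 5 bases between them, on either strand, a general kappaB pattern. The windows are chr13:42051771-42052020 for Hivep1, chr10:13966129-13966378 for Hivep2 and chr4:119814428-119814677 for Hivep3.
Hivep1: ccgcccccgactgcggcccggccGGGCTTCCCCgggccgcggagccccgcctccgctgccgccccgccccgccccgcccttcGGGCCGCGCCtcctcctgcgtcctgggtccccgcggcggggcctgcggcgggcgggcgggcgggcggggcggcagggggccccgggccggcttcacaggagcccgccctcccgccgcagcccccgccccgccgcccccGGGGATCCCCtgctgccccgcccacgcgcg
Hivep2: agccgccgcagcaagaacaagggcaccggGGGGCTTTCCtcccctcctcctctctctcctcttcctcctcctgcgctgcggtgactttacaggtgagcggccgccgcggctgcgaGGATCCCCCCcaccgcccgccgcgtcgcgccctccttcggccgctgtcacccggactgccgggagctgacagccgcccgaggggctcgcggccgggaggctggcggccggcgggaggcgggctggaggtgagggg
Hivep3: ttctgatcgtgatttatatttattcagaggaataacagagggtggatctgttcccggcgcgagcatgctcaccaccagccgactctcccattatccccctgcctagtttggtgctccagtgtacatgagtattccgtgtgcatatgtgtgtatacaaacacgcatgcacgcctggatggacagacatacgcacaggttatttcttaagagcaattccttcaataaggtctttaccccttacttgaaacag
The windows of Hivep1 and Hivep2 held 88.4% and 75.2% G or C and 41 and 29 CpG dinucleotides, against medians of 52.4% and 6 over 32851 RefSeq promoter windows. The window of Hivep3 held 46.4% G or C and 9 CpG dinucleotides. The annotation gives 9 different transcript starts for Hivep3 and 5 each for Hivep1 and Hivep2, so each window shows 1 of several. The windows of Hivep2 and Hivep3 lie within the annotated genes. This kappaB pattern matched 3 times for Hivep1, 2 times for Hivep2 and 0 times for Hivep3, and 45.8% of all windows hold it. An EGR pattern, GCG and GGGCG with 1 base between them, searched on both strands because Egr2 marks stage 0 cells, matched 1 time for Hivep1 and 0 times for Hivep2 and Hivep3, without overlap with a kappaB match, and 4.7% of all windows hold it.

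The libraries held 31381738 to 48291764 UMIs, and 3651 to 7231 cells per library passed the filter, with medians of 4596 and 5268 UMIs per cell in C57BL/6 and of 6833 and 6491 in Hivep3-/-. Clusters were named from marker genes, with the 3 Hivep genes left out of the clustering, which gave 1214 stage 0-like, 2514 cycling-like, 2758 iNKT2-like, 616 iNKT17-like and 11466 iNKT1-like cells. Stage 0 cells are the youngest iNKT cells after positive selection, and iNKT1, iNKT2 and iNKT17 cells are the mature subsets. C57BL/6 replicate 1 held 17330 UMIs of Xist, the RNA that silences one X chromosome in females, against 3 to 25 in the other libraries, so it stands apart in this transcript. The study describes the C57BL/6 mice as female, which the other C57BL/6 library goes against. The study's methods also state, for its experiments in general, that both sexes were used. Xist was low in both Hivep3-/- libraries too, at 25 and 3 UMIs, so the library high in Xist falls in C57BL/6 alone. A result whose call changes without C57BL/6 replicate 1 is also given that way. Pairs of libraries shared 18 to 43 cell barcodes.

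Over all cells, Hivep3 UMIs were not lower in the libraries labelled Hivep3-/-. The level of Hivep3 was 38.5 and 36.4 CPM (its UMIs in 1000000 UMIs of the cells summed) in C57BL/6 replicates 1 and 2, and 101 and 68.0 CPM in the Hivep3-/- replicates. The 2 genotypes did not overlap, and Hivep3-/- was higher by 1.08 ± 0.19 on the log2 scale (SE, n = 2 libraries against 2), with an adjusted p of 0.0743 in edgeR (quasi-likelihood test, adjusted after Benjamini and Hochberg over all genes tested). A count taken at the 5' end does not show which exons a transcript held, so this count does not check the genotype labels, and the groups are named here as labelled.
Hivep1 stood at 3.46 and 3.45 CPM in C57BL/6 and at 6.09 and 5.41 CPM in Hivep3-/-, a difference of 0.64 ± 0.23 (log2, SE) with an adjusted p of 0.348. Hivep2 stood at 17.5 and 21.9 CPM in C57BL/6 and at 24.3 and 22.4 CPM in Hivep3-/-, a difference of 0.15 ± 0.17 with an adjusted p of 0.787. So 0 of the 3 members passed the test over all cells, where 0.765% of 12291 genes were called. At an unadjusted p under 0.05 there were 2, Hivep1 and Hivep3, among 1472 of all 12291 genes. DESeq2 called 1, Hivep3, among 413 genes called. The libraries also differed in their mix of classes, since stage 0-like cells gave 3.22% and 2.72% of all UMIs in C57BL/6 and 7.10% and 7.90% in Hivep3-/-, shares that the equal mixing of CD44low and CD44high cells also sets, and the part of that mix in the sums over all cells was not tested. Fewer cells of a class and less RNA per cell cannot be told apart in such sums, so the classes were compared next.

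Hivep3 was most abundant in stage 0-like cells in each of the 4 libraries. In these cells its level was 251 and 314 CPM in C57BL/6 replicates 1 and 2. In the Hivep3-/- replicates it was 622 and 309 CPM. The Hivep3-/- libraries differed from each other by more than the C57BL/6 libraries did, replicate 2 lay within the C57BL/6 range, and only replicate 1 lay above it. Egr2, a transcription factor gene induced by T cell receptor signals, was likewise highest in Hivep3-/- replicate 1, at 440 CPM against 122 CPM in replicate 2 and 183 and 157 CPM in C57BL/6, and its part in the difference between the 2 replicates was not tested.
In C57BL/6, the mean level of Hivep3 was 282 ± 44.5 CPM in stage 0-like cells (SD, n = 2), 39.2 ± 1.34 in iNKT2-like, 35.3 ± 3.54 in cycling-like, 17.3 ± 1.13 in iNKT1-like and 13.6 ± 7.56 in iNKT17-like cells. In this order the iNKT2-like libraries lay just above the cycling-like ones, at 38.3 and 40.2 against 32.8 and 37.8 CPM, and the iNKT1-like and iNKT17-like levels overlapped. In Hivep3-/- the means were 466 ± 221, 81.6 ± 38.7, 86.5 ± 29.0, 24.2 ± 5.23 and 9.90 ± 0.990 CPM in the same 5 classes.

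**Figure D1:**
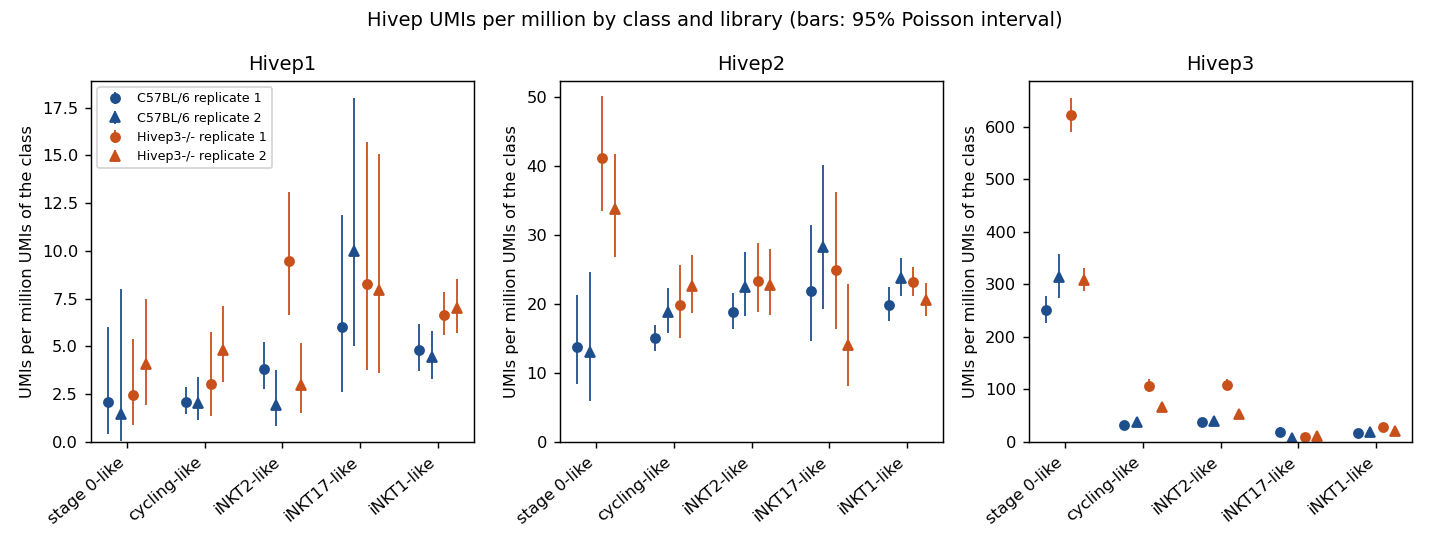
CPM (linear axis, a different range for each gene) for Hivep1, Hivep2 and Hivep3 in the 5 classes. Points are single libraries, C57BL/6 in blue and Hivep3-/- in orange, and bars are 95% Poisson intervals that cover counting error only. Hivep3 stands highest in stage 0-like cells of all 4 libraries, from 251 to 622 CPM, and Hivep2 is higher in stage 0-like cells of both Hivep3-/- libraries, at 41.2 and 33.7 CPM, than in those of both C57BL/6 libraries, at 13.8 and 13 CPM.

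Stage 0-like cells were set against the mean of the other 4 classes within each genotype, with mouse as a block. In C57BL/6, Hivep3 was higher in stage 0-like cells by 3.32 ± 0.11 (log2, SE, 2 mice), which is given without a test because the study singled the gene out for this pattern in these libraries. In the Hivep3-/- libraries, which that choice did not use, Hivep3 was higher in stage 0-like cells by 3.38 ± 0.10, with an adjusted p of 1.44e-12 (edgeR). The genotype did not detectably alter this contrast, since the difference between both was 0.11 ± 0.18 with a 95% interval of -0.27 to 0.49 and an adjusted p of 0.924. Stage 0-like cells supplied 21% and 23.5% of the Hivep3 UMIs of the C57BL/6 libraries, against 43.6% and 36.0% of those of Hivep3-/-.

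With stage 0-like cells taken as a whole, Hivep2 lay on opposite sides of the other classes in the 2 genotypes. It was counted at 13.8 and 13 CPM in C57BL/6 replicates 1 and 2, from 20 and 9 UMIs, and at 41.2 and 33.7 CPM in the Hivep3-/- replicates, from 100 and 83 UMIs. The genotypes did not overlap. In the other 4 classes the Hivep2 levels of single libraries ran from 14.1 to 28.3 CPM, so the C57BL/6 stage 0-like cells lay below that range and the Hivep3-/- stage 0-like cells lay above it. Their Poisson intervals were 8.41 to 21.3 and 5.93 to 24.6 CPM in C57BL/6 and 33.5 to 50.1 and 26.8 to 41.7 CPM in Hivep3-/-. Only that of Hivep3-/- replicate 1 stayed outside the range.
Against the mean of the other classes, Hivep2 in C57BL/6 stage 0-like cells was lower, at -0.79 ± 0.24 on the log2 scale with an adjusted p of 0.00993 (edgeR). In the Hivep3-/- libraries it was higher by 0.52 ± 0.14, with an adjusted p of 0.00671. The difference between these 2 contrasts, the interaction of genotype and stage, was 1.36 ± 0.26 with a 95% interval of 0.82 to 1.90 and an adjusted p of 0.00648. The interaction called 1 of the 3 members, Hivep2, where it called 1.33% of 11048 genes. Leaving out C57BL/6 replicate 1 gave an interaction of 1.62 with an adjusted p of 0.173, and leaving out the other C57BL/6 library gave 1.22 with 0.183, so the call rests on having both C57BL/6 libraries.
Within single C57BL/6 mice, on log2(CPM + 1) and with no test, the Hivep2 contrast was -0.42 without replicate 2 and -0.79 without replicate 1. The Hivep2 contrasts also moved with the clustering. At resolution 1.2, where only the Cd24a-led part described further on was named stage 0-like, the C57BL/6 contrast was 0.24 with an adjusted p of 0.722, and the interaction was 1.24 with an adjusted p of 0.432. With classes from a marker score per cell, the Hivep3-/- contrast was 0.30 with an adjusted p of 0.0513.

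The same contrasts placed Hivep1 below the other classes. Hivep1 differed by -1.30 ± 0.66 in C57BL/6, with an adjusted p of 0.128, and by -1.18 ± 0.46 in Hivep3-/-, with an adjusted p of 0.047. These rest on 3 and 1 UMIs of Hivep1 in the stage 0-like cells of C57BL/6 and on 6 and 10 UMIs in those of Hivep3-/-, and the second call was lost, at an adjusted p of 0.0533, when the 5% of cells with the highest doublet scores were left out. Within single Hivep3-/- mice, on log2(CPM + 1), the Hivep1 contrast was -1.09 without replicate 2 and -0.34 without replicate 1. The interaction of Hivep1 was 0.17 ± 0.97, an error too wide to place it, with an adjusted p of 1. In C57BL/6, 38.2% of 10968 genes were called between stage 0-like cells and the other classes, 20.4% higher and 17.8% lower, and 1 of the 2 members tested, Hivep2, was among the lower. In Hivep3-/-, 48.9% of 10461 genes were called, 24.7% higher and 24.2% lower, and all 3 members were called, with Hivep2 and Hivep3 higher and Hivep1 lower.

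Within classes, the direct comparison of the genotypes had less support. In stage 0-like cells Hivep2 was higher in Hivep3-/- by 1.34 ± 0.30 (log2, SE), with a 95% interval of 0.69 to 2, an unadjusted p of 0.00078 and an adjusted p of 0.107. Hivep3 differed there by 0.59 ± 0.26 with an adjusted p of 0.569, and by 0.06 without Hivep3-/- replicate 1. So 0 of 2 members tested passed in stage 0-like cells, where 0.353% of 8777 genes were called, and DESeq2 called 0. Both had an unadjusted p under 0.05, as did 726 of the 8777 genes. Without Hivep3-/- replicate 2, which leaves 1 library in that genotype, the difference was 1.42 for Hivep2 and 0.96 for Hivep3. Hivep1 fell below the filter on low counts in stage 0-like cells and was not tested there, and its levels of 2.07 and 1.44 CPM in C57BL/6 and of 2.47 and 4.06 CPM in Hivep3-/- had Poisson intervals that overlapped in all 4 libraries.

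Cycling-like cells gave the only member called between genotypes in a class. Hivep3 stood at 32.8 and 37.8 CPM in C57BL/6 cycling-like cells and at 107 and 66.0 CPM in those of Hivep3-/-, with no overlap. It rose by 1.12 ± 0.23 with an adjusted p of 0.0476, 1 call among 3 members where 2.95% of 10366 genes were called. The call was lost without C57BL/6 replicate 1 (1.01, adjusted p of 0.214), without C57BL/6 replicate 2 (1.23, 0.105) and also when Hivep3-/- replicate 1 was left out (0.78, 0.0991). The 4 clusters of this class took different shares of the 2 genotypes. The cluster led by Hist1h2ap and Hist1h2ae, in which Hivep3 was highest, held 269 of 1902 C57BL/6 and 185 of 612 Hivep3-/- cells. Pooled over libraries, Hivep3 stood there at 49 CPM in C57BL/6 and 133 CPM in Hivep3-/-, at 33.3 and 75.9 CPM in the cluster led by Ung and Hells, and at 29.4 and 50.8 CPM in the one led by Ccnb2 and Cenpa. In the cluster led by Mki67 the order was the other way, at 32.5 and 25.7 CPM from 37 and 24 UMIs. The part of this mix in the call was not tested.
Hivep1 and Hivep2 differed in cycling-like cells by 0.81 ± 0.40 and 0.19 ± 0.22, with adjusted p of 0.351 and 0.71.

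iNKT2-like cells showed the same order of libraries for Hivep3, at 38.3 and 40.2 CPM in C57BL/6 and at 109 and 54.2 CPM in Hivep3-/-. The difference was 0.95 ± 0.27, with an adjusted p of 0.31. Without Hivep3-/- replicate 1, the higher library, it was 0.43. It was 0.91, 0.99 and 1.32 without C57BL/6 replicate 1, C57BL/6 replicate 2 or Hivep3-/- replicate 2. Each of these fits leaves 1 library in a genotype. Hivep1 stood at 3.84 and 1.91 CPM in C57BL/6 and at 9.46 and 2.97 CPM in Hivep3-/-, so 1 library set most of its difference of 0.89 ± 0.55 (adjusted p of 0.698). Hivep2 differed by 0.09 ± 0.20, with a 95% interval of -0.37 to 0.54. No member passed in these cells (0 of 3, with 1 at an unadjusted p under 0.05 and 0 called by DESeq2), where 0.347% of 9520 genes were called. Of the 9520 genes, 823 had an unadjusted p under 0.05.

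iNKT1-like and iNKT17-like cells held Hivep3 at its lowest levels. In iNKT1-like cells it stood at 16.5 and 18.1 CPM in C57BL/6 and at 27.9 and 20.5 CPM in Hivep3-/-, a difference of 0.40 ± 0.17 with an adjusted p of 0.539. Hivep1 there stood at 4.84 and 4.44 CPM against 6.64 and 7.01 CPM, without overlap, but with an adjusted p of 0.618. Hivep2 differed by -0.07 ± 0.16, with a 95% interval of -0.44 to 0.29. So 0 of 3 members passed in iNKT1-like cells, with 1 at an unadjusted p under 0.05 and 0 called by DESeq2, and 0.822% of 10828 genes were called. Of the 10828 genes, 984 had an unadjusted p under 0.05.
In iNKT17-like cells Hivep3 had only 9 to 25 UMIs per library, at 18.9 and 8.21 CPM in C57BL/6 and at 9.20 and 10.6 CPM in Hivep3-/-. It differed by -0.55 ± 0.47 and Hivep2 by -0.43 ± 0.35, both with an adjusted p of 0.954. So 0 of 2 members tested passed, where 0.0655% of 7629 genes were called, and 0 had an unadjusted p under 0.05. DESeq2 called 0, and gave Hivep3 no adjusted p. Hivep1 was not tested there and had 8 to 11 UMIs per library, at 6.04 to 10.0 CPM.

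**Figure D2:**
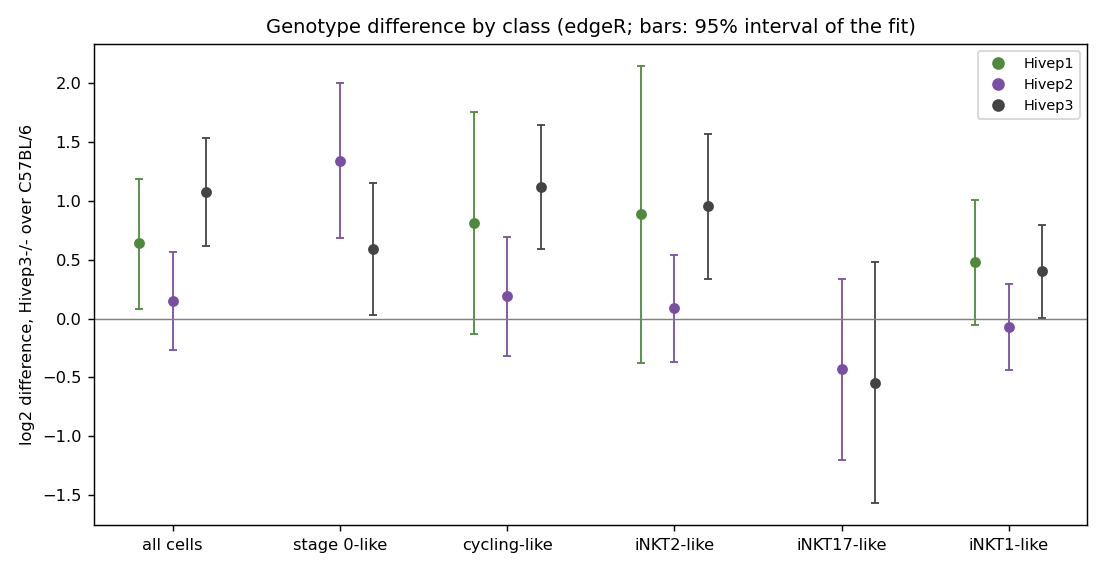
Difference of Hivep3-/- over C57BL/6 on the log2 scale (vertical axis) for each member over all cells and in each class. Points are edgeR estimates from 2 libraries per genotype and bars are 95% intervals of the fit; Hivep1 was under the filter on low counts in stage 0-like and iNKT17-like cells. The Hivep2 estimate is 1.34 in stage 0-like cells and between -0.43 and 0.19 elsewhere.

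Stage 0-like cells were also split at a finer clustering, a split chosen after the data were seen. One subgroup was led by Gm43352, Itm2a, Nrgn and Lef1, and made up 50.3% and 61.6% of stage 0-like cells in C57BL/6 and 56.8% in each Hivep3-/- library. The other was led by Itm2a, Cd24a, Cldn10 and Nr4a1, and made up 49.7% and 38.4% in C57BL/6 and 43.2% in each Hivep3-/- library. CD24 is the surface protein that defines stage 0.
Hivep2 was higher in the Cd24a-led cells of each library, and the genotypes lay apart in both subgroups. Among Lef1-led cells it stood at 8.23 and 8.62 CPM in C57BL/6 and at 25.3 and 25.6 CPM in Hivep3-/-. Among Cd24a-led cells it stood at 30.7 and 35.1 CPM in C57BL/6, from 11 and 4 UMIs, and at 93.8 and 64.7 CPM in Hivep3-/-, from 53 and 33 UMIs. Set against the 14.1 to 28.3 CPM of the other 4 classes, the Cd24a-led levels lay above in both genotypes. The Lef1-led levels lay below in C57BL/6, from 9 and 5 UMIs, and inside that range in Hivep3-/-. All Poisson intervals of C57BL/6 reached into the range, at 15.3 to 55 and 9.57 to 90 CPM in Cd24a-led cells and 3.76 to 15.6 and 2.8 to 20.1 CPM in Lef1-led cells. Those of Hivep3-/- Cd24a-led cells, 70.3 to 123 and 44.5 to 90.8 CPM, stayed above it. The genotype difference of Hivep2 was 1.48 ± 0.40 in the Lef1-led cells and 1.2 ± 0.41 in the Cd24a-led cells, with adjusted p of 0.137 and 0.999, so neither passed alone.
Hivep3 followed the same order, at 218 and 290 CPM in Lef1-led and 352 and 439 CPM in Cd24a-led cells of C57BL/6. In Hivep3-/- it stood at 515 and 246 CPM in Lef1-led and at 976 and 553 CPM in Cd24a-led cells. Cd24a-led cells were shallow, with median depths of 2000 to 3530 UMIs per cell against 5804 to 8230 in the Lef1-led cells, and the part of depth in these levels was not tested.

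**Figure D3:**
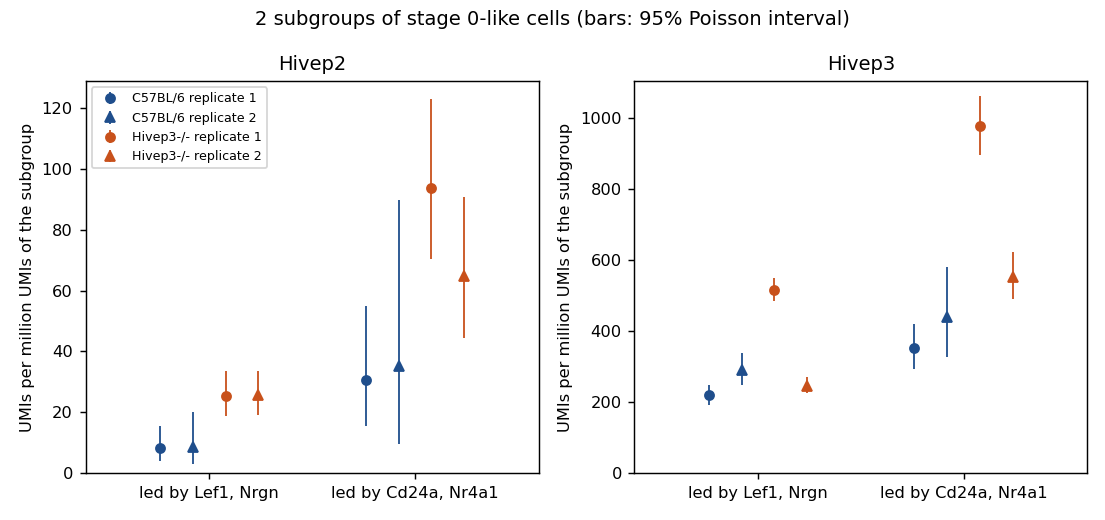
CPM (linear axis from 0) for Hivep2 and Hivep3 in the 2 subgroups of stage 0-like cells. Points are single libraries and bars are 95% Poisson intervals of counting error. For Hivep2 both Hivep3-/- libraries stand above both C57BL/6 libraries in each subgroup, and for Hivep3 replicate 1 of Hivep3-/- stands apart, at 515 and 976 CPM.

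Marker lists of other classes were summed in the stage 0-like cells. The 14 cycling markers summed to 1610 and 1560 CPM in C57BL/6 and to 2070 and 2300 CPM in Hivep3-/-. The 10 iNKT2 markers summed to 1230 and 1160 against 871 and 783 CPM, and the 16 iNKT1 markers to 539 and 575 against 416 and 428 CPM. None of these 3 lists overlapped between genotypes, the first being higher and the other 2 lower in Hivep3-/-, while the 12 iNKT17 markers overlapped at 8.24 to 25.5 CPM. The 13 stage 0 markers overlapped too, at 8810 and 8750 against 9800 and 8100 CPM. So did the 6 interferon response markers, at 175 and 141 against 162 and 171, and the 6 markers of late iNKT1 cells. With 2 libraries against 2, no such gap can give a two-sided exact permutation p below 0.333. The 7 markers of double positive thymocytes, the stage before iNKT cells arise, summed to 56.5 and 41.8 CPM in C57BL/6 and to 66.0 and 95.3 CPM in Hivep3-/-. Rag1, Rag2 and Ptcra were at 0 in both C57BL/6 libraries and in Hivep3-/- replicate 1, and none of the 7 was at 0 in Hivep3-/- replicate 2, where Rag1 had 1 UMI. The double positive list was thus higher in Hivep3-/-, and the part of these lists in the Hivep2 result was not tested. The cells set apart as double positive thymocyte-like numbered 36 in all, with 3 UMIs of Hivep2 and 3 of Hivep3. The 5 B cell markers summed to 2.88 to 5.51 CPM and the 5 myeloid markers to 0 to 0.412 CPM in the stage 0-like cells.

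Most stage 0-like cells held a UMI of Hivep3, and few held one of Hivep2. A UMI of Hivep3 was found in 54.2% and 76.8% of the C57BL/6 stage 0-like cells and in 90.2% and 73.5% of those of the Hivep3-/- replicates. At 3 UMIs or more these shares were 14.1% and 27.7% in C57BL/6 and 63.6% and 28.7% in Hivep3-/-, and the highest count in 1 cell was 21, in Hivep3-/- replicate 1. A UMI of Hivep2 was found in 5.09% and 7.14% of stage 0-like cells in C57BL/6 and in 23.1% and 18% in Hivep3-/-. Hivep1 was found in 0.898% and 0.893% of them in C57BL/6 and in 1.63% and 2.25% in Hivep3-/-.
Since the Hivep3-/- cells were deeper, the shares were also computed as the share expected with 2000 UMIs drawn from each cell (thinned), leaving out 94 of 446 stage 0-like cells in C57BL/6 and 49 of 768 in Hivep3-/-. Of the Cd24a-led cells, 83 of 166 and 9 of 43 were left out in C57BL/6, against 13 of 159 and 35 of 173 in Hivep3-/-. The part of this unequal loss in the thinned shares was not tested. Thinned shares of Hivep3 were 39.3% and 49.6% against 67.8% and 47.4%, which overlap. Thinned shares of Hivep2 were 1.82% and 3.1% against 10.3% and 7.67%, which do not. Neither can be tested firmly, because a two-sided exact permutation test of 2 libraries against 2 cannot give a p below 0.333, the value reached for Hivep2, while Hivep3 gave an exact p of 0.667. After thinning, Hivep1 was expected in 0.605% ± 0.335 of stage 0-like cells in C57BL/6 and 0.679% ± 0.115 in Hivep3-/- (SD, n = 2), a difference of 0.074 percentage points. At 3000 UMIs the shares of Hivep1 were 0.764% and 0% against 1.01% and 1.34%, a difference of 0.793 points without overlap, so this comparison depends on the depth chosen, and it rests on 1 to 10 UMIs per library.

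**Figure D4:**
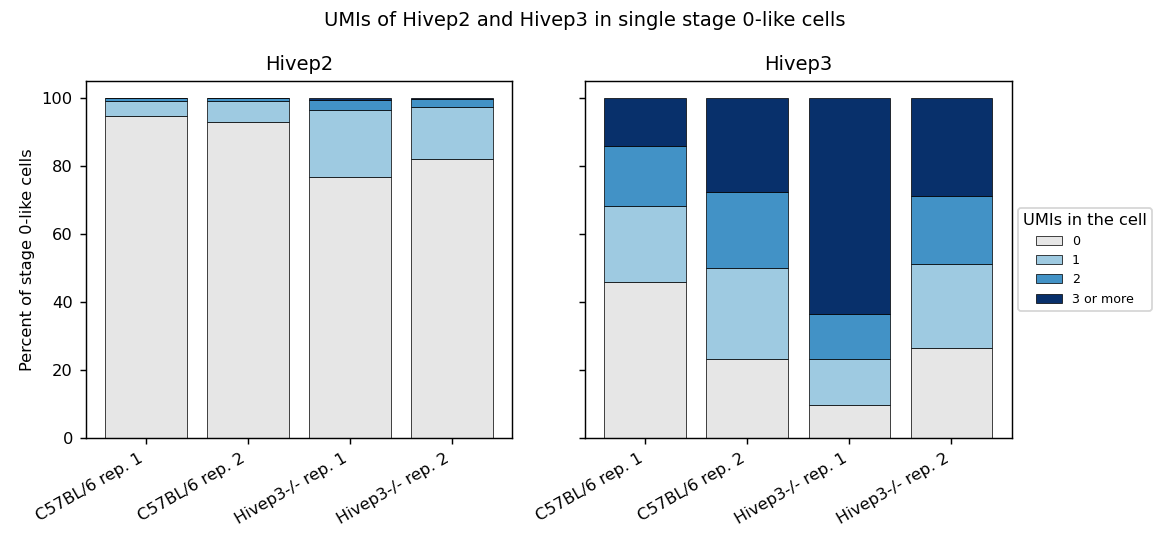
Percent of stage 0-like cells (stacked to 100) with 0, 1, 2 or at least 3 UMIs of Hivep2 and Hivep3, 1 bar per library, without thinning. Cells with at least 3 UMIs of Hivep3 make up 63.6% of Hivep3-/- replicate 1 and 14.1% to 28.7% of the other libraries, and cells with no UMI of Hivep2 make up 94.9% and 92.9% in C57BL/6 and 76.9% and 82.0% in Hivep3-/-.

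In the other classes the thinned share of Hivep3 was lower than in stage 0-like cells in every library. Hivep3 was expected in 6.32% ± 0.544 of C57BL/6 and 13.6% ± 3.46 of Hivep3-/- cycling-like cells, and in 6.50% ± 0.113 and 12.6% ± 4.48 of iNKT2-like cells. In iNKT1-like cells the shares were 3.28% ± 0.247 and 4.26% ± 0.827. Hivep2 lay between 2.78% and 6.10% in every library and class apart from stage 0-like cells. Hivep1 lay between 0.423% and 2.23%, and was highest in iNKT17-like cells of C57BL/6, at 2% ± 0.325. The B cell gene Cd79a was found in 0% to 0.145% of cells of the 5 classes without thinning. The libraries held only 2 to 5 B cell-like cells each, so this cannot gauge free Hivep RNA from the iNKT cells.

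Cells in clusters without a name were left out of these comparisons, 254 and 28 in C57BL/6 and 318 and 419 in Hivep3-/-. Most belonged to a cluster led by Tnni1, Klrb1a and Htra3, with 186 C57BL/6 and 718 Hivep3-/- cells. By marker score, 71.2% of its 904 cells fell in stage 0. It stayed unnamed because Cd24a was not among its leading genes. The stage 0-like results above thus leave this cluster out, and its part in them was not tested. In the unnamed cells Hivep3 stood at 110 and 150 CPM in C57BL/6 and at 207 and 122 CPM in Hivep3-/-, between its stage 0-like and iNKT2-like levels in each library. Hivep2 stood there at 15.9 and 11.2 CPM in C57BL/6, from 23 and 3 UMIs, and at 23.6 and 23.0 CPM in Hivep3-/-.

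The genes most like each member were named from the Pearson correlation of log2(CPM + 1) over 10 sums, 5 classes of 2 C57BL/6 libraries, among genes that averaged 20 CPM or more, T cell receptor segments left out. The points share libraries and differ in depth, so the correlations are a description. For Hivep3 they included Ttc3 (0.995), Zfp330 (0.985), Arpc2 (0.981) and Tes (0.98). Ttc3 stood at 119 and 130 CPM in C57BL/6 stage 0-like cells, against 28.3 to 58.6 CPM in the other classes. For Hivep2 they were mt-Nd4, Bin3, Plekho2, Mllt6 and Ly6g5b (0.945 to 0.953), which in C57BL/6 stood below every other class in stage 0-like cells, apart from mt-Nd4 in replicate 2. For Hivep1 they were Fnbp1, Abi3, Pim2, Mark2 and Rara (0.944 to 0.95), but Hivep1 had only 1 to 62 UMIs per sum.

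Of the 15 genes of the NF-kappaB pathway, whose sites HIVEP proteins also bind, 10 were lower and 0 higher in C57BL/6 stage 0-like cells than in the other classes. The list median was -0.77 against 0.03 over all genes tested, of which 17.8% were called lower and 20.4% higher. In Hivep3-/- 9 were lower and 1 was higher, with a median of -0.63 against 0.02. There 24.2% of all genes tested were called lower and 24.7% higher. Nfkbia, the inhibitor of NF-kappaB, was lower by -1.67 ± 0.08 in C57BL/6 and -1.06 ± 0.14 in Hivep3-/-, and Tnfaip3, a deubiquitinase that ends the signal, by -1.74 ± 0.16 and -2 ± 0.19. Bcl3, a nuclear partner of NF-kappaB, had 0 to 4 UMIs per library in stage 0-like cells. The gene that was higher in Hivep3-/- was Ikbkb, a kinase that releases NF-kappaB, at 0.31 ± 0.10.
Between genotypes, 0 of the 14 or 15 genes tested were called in any class, over all cells or by the interaction, with 0 to 2 at an unadjusted p under 0.05 in the classes and over all cells and 4 in the interaction. Of all 11048 genes in the interaction, 1162 had an unadjusted p under 0.05. In the classes this held for 425 of 7629 genes in iNKT17-like cells up to 1861 of 10366 in cycling-like cells. DESeq2 called 0 in the classes and over all cells and was not run on the interaction. In stage 0-like cells the list median was 0.27 against 0.02 over all genes.

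Of 13 genes that code for partners or targets of HIVEP proteins, 11 were tested between stages. In C57BL/6, 7 were lower and 1 higher in stage 0-like cells, and in Hivep3-/- 8 were lower and 1 higher. The list medians were -1.22 and -1.09 against 0.03 and 0.02 over all genes tested. Of all genes tested, 17.8% and 24.2% were called lower and 20.4% and 24.7% higher. Traf2, which codes for a signalling adapter that HIVEP3 binds, was lower by -0.42 ± 0.15 and -0.36 ± 0.11, and Jun, a subunit of the AP-1 factor, by -0.57 ± 0.16 and -1.09 ± 0.11.
Between genotypes, 1 of 9 was called in cycling-like cells and 2 of 11 in iNKT1-like cells, where 2.95% and 0.822% of all genes were. In stage 0-like, iNKT2-like and iNKT17-like cells 0 were called (0, 1 and 1 at an unadjusted p under 0.05, and 0 by DESeq2). Over all cells edgeR called 0 of 11, with 2 at an unadjusted p under 0.05, and DESeq2 called 2. Of all 12291 genes there, 1472 had an unadjusted p under 0.05 and DESeq2 called 413. S100a4, a calcium-binding protein gene, stood at 130 and 154 CPM in C57BL/6 iNKT1-like cells and at 378 and 604 CPM in those of Hivep3-/-, a rise of 1.73 ± 0.26 with an adjusted p of 0.0353 that was lost without C57BL/6 replicate 1 (1.62, 0.273) or replicate 2 (1.85, 0.148). In cycling-like cells S100a4 rose by 1.48 ± 0.20 with an adjusted p of 0.0129, and by 1.21 to 1.78 with any 1 library left out, each time called. In iNKT2-like cells S100a4 lay the other way, at 55.1 and 63.2 CPM in C57BL/6 and at 33.1 and 44.8 CPM in Hivep3-/-, a difference of -0.68 ± 0.20 with an adjusted p of 0.341. Il2, the gene of the T cell growth factor interleukin-2, stood at 2.34 and 4.44 CPM in C57BL/6 iNKT1-like cells and at 19.8 and 21.3 CPM in those of Hivep3-/-, a rise of 2.53 ± 0.29 with an adjusted p of 0.0128, which was 0.0609 with C57BL/6 replicate 1 left out (2.15) and 0.0531 with Hivep3-/- replicate 2 left out (2.41). The iNKT1-like class was made of different clusters in the 2 genotypes: the cluster led by Ccl5 and Ifitm2 took up 1058 of 5979 cells in C57BL/6 but 2089 of 5487 in Hivep3-/-, while the one led by Dusp1 and Klrb1c held 3712 and 1854. The part of this mix in the S100a4 and Il2 differences was not tested.

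Genes around Hivep3 were checked because a backcrossed locus can carry linked sequence of another strain. Of 87 counted genes that start within 2 Mb of the start of Hivep3 on chromosome 4, 22 to 32 were tested in a class or over all cells, and 0 were called by edgeR or DESeq2. From 0 to 3 of them had an unadjusted p under 0.05.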

How the data were processed

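The matrices deposited by the authors hold raw UMI counts (a UMI tags 1 captured transcript) of each gene in each barcode, made with Cell Ranger 3.1.0 on mm10 and not normalized; the submitters' notes also name Seurat 3.1.4. Groups and replicate numbers came from the sample titles. Each library was 1 mouse, and the study's text calls the libraries of a genotype independent experiments, so the spread between replicates includes that between experiments. Members, gene lists and tests were chosen with earlier results of these data known.

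Cells with 500 to under 4100 genes, at least 1000 UMIs and under 6% mitochondrial UMIs were kept. In R 4.3.3, B cell-like, double positive-like and myeloid-like cells were set apart by marker counts, then 30 principal components of 2000 variable genes (irlba 2.3.5.1) were corrected by mutual nearest neighbours (20 neighbours, RANN 2.6.2) and clustered with Louvain at resolution 0.8 (Seurat 5.3.0). A cluster was named for the class that had at least 2 markers, and more than any other class, in its top 10 genes by fold, or else the class of at least 50% of its cells by marker score, and stage 0 also needed Cd24a. This naming rule was set after the data were seen. Scrublet (scanpy 1.11.5) marked 0 to 5 cells per library and had not worked, so no doublet was removed.

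UMIs were summed per library and class and tested with edgeR 4.0.16 (quasi-likelihood, two-sided, filterByExpr, TMM), with Benjamini-Hochberg adjustment over all genes and calls at an adjusted p under 0.05. The fits were tested on simulated data. CPM are UMIs per 1000000 UMIs of the class in that library, unscaled, and log2 differences are Hivep3-/- over C57BL/6. Alternatives included DESeq2 1.42.0. Poisson intervals are exact, at 95%, and cover counting error only. Named genes were the 3 members, the 5 most alike genes, called genes of 2 lists and of the 2 Mb around Hivep3, and overlapping genes; further genes of the lists were named after their values were seen. Some results under these rules are not reported here. The GENCODE annotation held 31011 of the 31053 gene identifiers. Promoter sequences are from RefSeq (GRCm38.p6); 3 of 3 members matched.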

Additional observations from a re-analysis of the deposited data

Results flagged for a closer look

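The genotype difference of Hivep2 in stage 0-like cells was unlike the mean over the remaining 4 classes, with a log2 gap of 1.36 (edgeR interaction test, adjusted p of 0.00648, Hivep2 higher in both Hivep3-/- libraries than in both C57BL/6 libraries). The level of 13 to 13.8 CPM in C57BL/6 rests on 29 UMIs from 446 cells, and that of 33.7 to 41.2 CPM in Hivep3-/- on 183 UMIs from 768 cells.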

How the results depend on the processing

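Differences are log2 values from edgeR unless named otherwise, with the adjusted p in parentheses. Over all cells Hivep3 passed with DESeq2 at 1.05 (3.89e-04), without a filter on low counts at 1.08 (2.95e-07) and with a replicate block at 1.06 (0.0231). In stage 0-like cells Hivep2 passed without the filter at 1.36 (0.0105) and with the replicate block at 1.36 (0.00326), and Hivep3 with the block at 0.555 (0.0398). In iNKT2-like cells Hivep3 passed without the filter at 0.948 (7.99e-05) and with the block at 0.917 (0.0471). The replicate numbers of the 2 genotypes share only a number: replicate differences correlated at 0.0796 over all cells and 0.183 to 0.298 in the classes. Signs turned for Hivep2 in iNKT2-like cells without correction between libraries (-0.0314) and in iNKT1-like cells without TMM factors (0.00784) or with a marker score per cell (0.0369), and for Hivep3 in iNKT17-like cells with that score (0.21). For stage 0-like cells against the others in C57BL/6, resolution 1.2 gave 0.214 for Hivep1 and 0.241 for Hivep2, and the marker score gave -1.13 (0.048) for Hivep1 and 2.78 for Hivep3. In Hivep3-/-, Hivep1 lost its call at resolution 1.2 (-0.779, 0.387) and with high doublet scores removed (-1.18, 0.0533), and Hivep2 with the marker score (0.3, 0.0513). The interaction was -0.234, -0.988 and -0.127 for Hivep1 at resolutions 0.4 and 1.2 and with a looser cell filter, 1.24 (0.432) for Hivep2 at resolution 1.2, and -0.25 for Hivep3 with the marker score. Unthinned shares in iNKT17-like cells differed by 1.55 points for Hivep1 and 1.17 for Hivep3, against -0.535 and -0.415 thinned. Except where an alternative's construction shows it, the cause was not tested.

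With 1 library left out at a time, the lone library is taken to vary like the rest. Over all cells Hivep2 ran from -0.0119 to 0.322 and Hivep3 from 0.787 to 1.28. In stage 0-like cells Hivep2 ran from 1.23 to 1.42 and Hivep3 from 0.0556 to 0.959, and in cycling-like cells Hivep3 ran from 0.779 to 1.39. In iNKT2-like cells Hivep1 ran from -0.0954 to 1.56, Hivep2 from -0.0574 to 0.207 and Hivep3 from 0.428 to 1.32. Hivep3 in iNKT17-like cells ran from -0.977 to 0.183 and Hivep2 in iNKT1-like cells from -0.184 to 0.0587. On log2(CPM + 1) within single mice, with no test, the stage contrast in C57BL/6 ran from 3.27 to 3.78 for Hivep3, -0.787 to -0.418 for Hivep2 and -0.977 to -0.7 for Hivep1. In Hivep3-/- it ran from 3.32 to 3.85, 0.744 to 0.83 and -1.09 to -0.336 in the same order. The interaction was refitted with edgeR with 1 library left out. It ran from -0.257 to 0.669 for Hivep1, 1.22 to 1.62 for Hivep2 and -0.198 to 0.374 for Hivep3.

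Counts of genes called also moved with the processing. Over all cells 94 became 413 with DESeq2, 965 without the filter, 212 with the block and 221 with the looser cell filter. In stage 0-like cells 31 became 151 without the filter, 276 with the block, 14 without TMM factors, 139 with the marker score, 9 with the looser cell filter and 0 at resolution 1.2 (262 at an unadjusted p under 0.05; DESeq2 was not run at that resolution). In cycling-like cells 306 became 1056 without the filter and 1030 with the block, 141 without correction between libraries, 113 with the marker score and 788 with the looser filter. In iNKT2-like cells 33 became 346 and 155, 67 with DESeq2 and with the marker score, 15 without correction and 59 with the looser filter. In iNKT17-like cells 5 became 82 and 80, 10 with DESeq2 and 13 with the marker score, and in iNKT1-like cells 89 became 574 and 105, with 214 for DESeq2. At resolution 1.2 the interaction called 3 in place of 147 and the C57BL/6 stage contrast 2196 in place of 4194. S100a4 in iNKT1-like cells lost its call at resolution 1.2 (1.54, 0.0528) and with the looser cell filter (1.5, 0.0853). Without TMM factors the median of all genes moved from 0.0251 to 0.12 over all cells, from 0.0202 to 0.147 in stage 0-like, and from 0.0282 to 0.184 in cycling-like cells, and Hivep3 relative to the median was then 1.056, 0.5845 and 1.1, against 1.051, 0.5687 and 1.093. Hivep1 in stage 0-like cells, at 1 to 10 UMIs per library, is limited by depth.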
